A study of Mus musculus with 21 samples.

Results

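Collagens are the main proteins of the extracellular matrix, and this account follows every mouse gene whose symbol has the form Col, a number, a, and a number. By that rule 44 of the 24391 genes listed in the count files were members. The data are RNA sequencing of brain, liver and skin from C57BL/6 mice on the day of birth (P0). 2 mice were Jak1 KI +/-, that is, heterozygous for a knock-in that puts aspartic acid in place of a histidine in the pseudokinase domain of the cytokine receptor kinase JAK1, together with silent changes in neighbouring codons. 5 mice were wild type (WT). Each mouse gave 1 library per tissue, 21 in all. The KI mice descend from a mosaic male, and the labels give neither sex nor litter. The KI comparisons within a tissue rest on the spread between 2 KI and 5 WT mice, and those between WT tissues on the 5 WT mice.

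A collagen molecule is built from chains that wind around each other as a rope-like helix, and the helix can close only where glycine, the smallest amino acid, recurs at regular steps with 2 other residues between. The family is sorted by what the molecules build. Fibrillar collagens (11 members) form the banded cables of dermis, tendon and bone. Basement membrane collagens (6 members, the type IV chains) form the sheet under epithelia and around vessels. Beaded filament collagens (6 members, type VI) link cells to that sheet, and fibril-associated collagens (9 members) coat the cables. The rest are short-chain network (3 members), transmembrane (4 members), multiplexin (2 members) and anchoring fibril (1 member) collagens, and 2 others. In newborn skin, dermal fibroblasts make most collagen. In liver, stellate cells, portal fibroblasts and hepatocytes are known sources. In brain, collagen is mostly a product of the meninges and the vessel walls.

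The repeat that makes a collagen can be read in its coding sequence. The following stretches, 90 coding bases each, are the first 10 repeats of the longest run of glycine codons with 2 other codons between them, in 4 members that the results below return to, with the glycine codons in capitals. They come from the GENCODE vM1 annotation of NCBIM37 (mm9), and all 90 bases of each equalled the genome.
Col1a1: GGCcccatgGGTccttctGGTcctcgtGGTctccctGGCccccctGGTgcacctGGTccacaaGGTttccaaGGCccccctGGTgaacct
Col4a1: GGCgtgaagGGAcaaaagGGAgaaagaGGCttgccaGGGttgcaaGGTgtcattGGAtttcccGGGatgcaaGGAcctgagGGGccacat
Col13a1: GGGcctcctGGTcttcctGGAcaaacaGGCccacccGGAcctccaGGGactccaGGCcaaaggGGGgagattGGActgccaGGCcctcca
Col27a1: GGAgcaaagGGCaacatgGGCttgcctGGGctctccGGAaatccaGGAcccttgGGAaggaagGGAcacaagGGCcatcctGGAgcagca

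The Col1a1 stretch covers codons 168 to 197 and lies in 3 coding exons at chr11:94800765-94801253 on the plus strand. That of Col4a1 covers codons 43 to 72, in 2 coding exons at chr8:11247024-11267614 on the minus strand. That of Col13a1 covers codons 468 to 497, in 2 coding exons at chr10:61325810-61326751 on the minus strand, and that of Col27a1 codons 673 to 702, in 3 coding exons at chr4:62905074-62914704 on the plus strand. In Col1a1 the run went on for 338 repeats without a break and took up 69.7% of the coding sequence. In Col27a1 it held 217 repeats, in Col13a1 44, and in Col4a1 40. The 11 fibrillar members had runs of 216 to 344 repeats, whereas the longest run of any of the other members was 113, in the fibril-associated class. The members are also long genes to sequence: their longest coding transcript had a median of 5897 bases, against 2818 for the genes tested in the brain. Their GC content was 56.0% at the median, against 50.9%.

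Several members sit side by side in the genome. Col4a1 (chr8:11198423-11312826, minus strand) and Col4a2 (chr8:11312805-11449287, plus strand), whose chains assemble together into the common form of type IV collagen, are annotated start to start, with an overlap of 22 bases. Col4a4 and Col4a3 on chromosome 1 are arranged in the same way with 71 bases between them, and Col4a6 and Col4a5 on chromosome X with 1308 bases between them. The kit used does not mark strand, so reads inside the Col4a1 and Col4a2 overlap cannot be told apart.

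The libraries held between 26549326 and 38388133 counts on genes, so counting error was small for most members. A library had 3 counts or fewer for 1 member in the brain (Col10a1), 7 in the liver and 1 in the skin (Col10a1). Levels are given as CPM, counts scaled to library size with TMM factors over all 21 libraries. The groups differed from each other mainly by tissue, and the tissues carried their defining markers. The neuron list (Snap25, Tubb3, Stmn2, Nefl and Syt1) summed to 4824 to 6080 CPM in every brain and to at most 42.7 CPM in any other tissue. The hepatocyte list summed to at least 179869 CPM in every liver. In skin the keratinocyte list (Krt5, Krt14, Krt10, Krt1 and Lor) was very uneven, from 753 to 14438 CPM, with KI 2 and WT 5 lowest. Counts per gene cannot show the edited bases. Jak1 itself lay between 156 and 162 CPM in KI brains and 90.8 and 151 in WT brains, 271 to 289 against 206 to 246 in liver, and 182 to 185 against 149 to 173 in skin. Both KI libraries were above all WT libraries in each tissue, and none of the differences passed (log2 fold changes of 0.21, 0.30 and 0.18, edgeR adjusted p = 0.72, 0.13 and 1.0).

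Which collagens does each WT tissue use, and at what level? Collagen took up a very different share of each transcriptome. In WT skin the 44 genes held 8.15% to 11.5% of all counts on genes, in WT liver 0.236% to 0.405%, and in WT brain 0.0782% to 0.201%. Levels between genes were compared per kilobase of the longest coding transcript. On that scale the family summed to 14286 ± 2427 CPM per kilobase in skin (SD, n = 5), 725 ± 207 in liver and 194 ± 71.6 in brain. The 5 skins, from 11346 to 17781, lay above every liver (528 to 959), and every liver lay above every brain (129 to 317). The paper reports lower RNA integrity for its skin samples than for its other samples. Contrasts with skin therefore cannot tell RNA quality from tissue.

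The make-up of that sum differed as well. Skin was fibrillar: the 11 fibrillar members held 80.3% ± 1.67 of the summed level per kilobase (SD, n = 5), and the type VI collagens 11.1% ± 1.14. In liver the largest share was that of the multiplexins, with 41.0% ± 9.21, ahead of the fibrillar members with 31.5% ± 7.30 and the basement membrane members with 14.1% ± 3.08. Brain had no dominant class. The fibrillar members held 26.0% ± 8.22, the basement membrane members 21.8% ± 3.29 and the fibril-associated members 21.5% ± 7.16, shares that overlapped between libraries. The fibrillar share of the brain ran from 18.4% to 39.2% between mice.

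**Figure D1:**
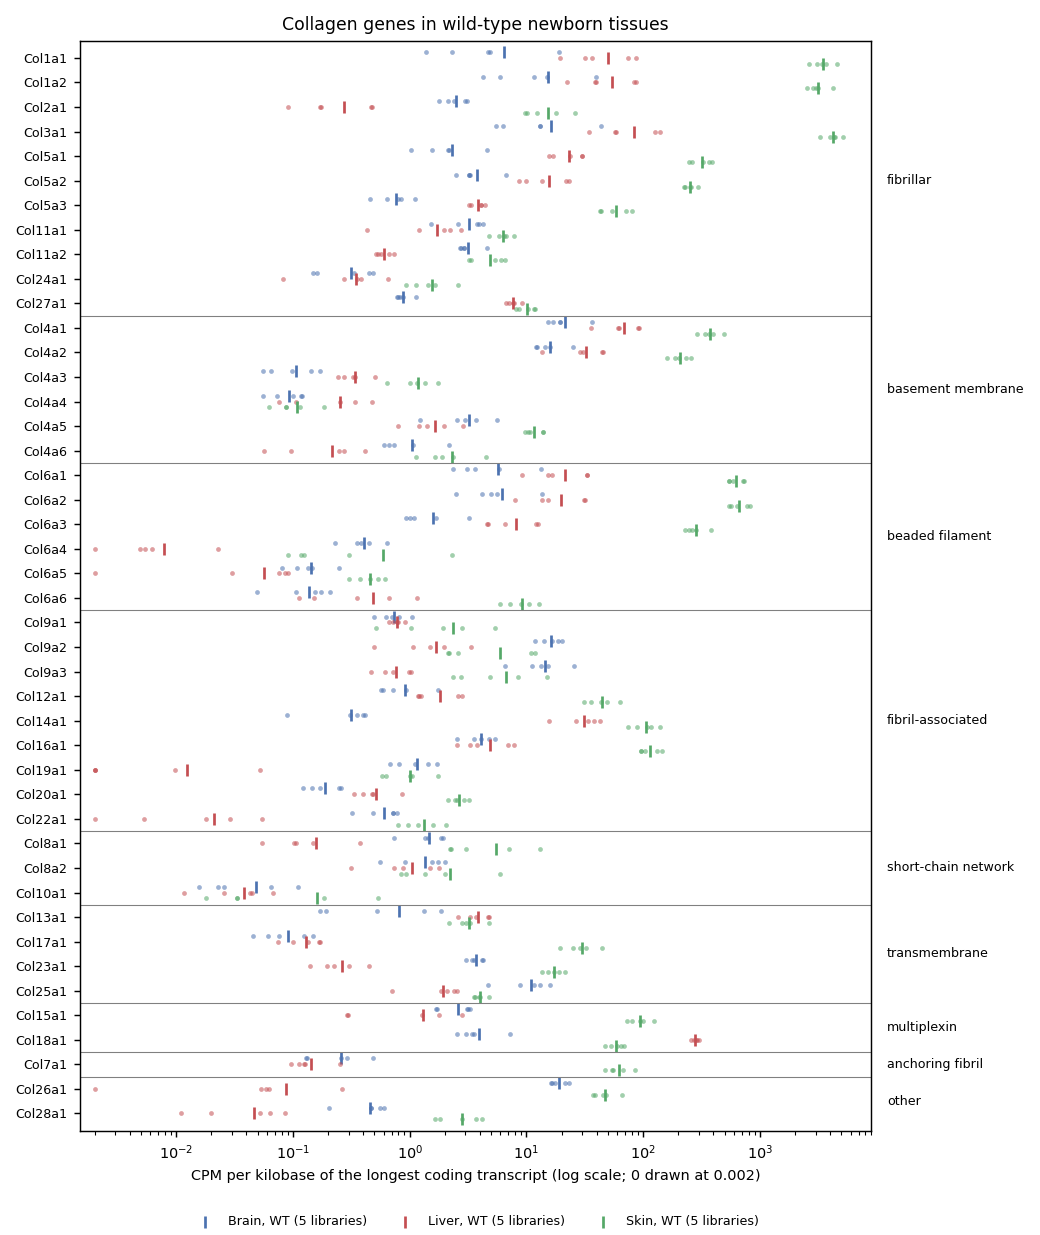
Level of each of the 44 collagen genes in the 5 WT libraries of brain, liver and skin, in CPM per kilobase on a log axis, grouped by class; points are libraries and vertical ticks are means. Skin lies to the right of both other tissues for most genes, with Col3a1 highest at 4221, and Col18a1 is the one gene whose liver libraries all lie above every other WT library.

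Among fibrillar members the same trio led in every tissue. In skin, Col3a1, the chain of the fine reticular fibrils, reached 4221 ± 683 CPM per kilobase (SD, n = 5), Col1a1 3460 ± 721 and Col1a2 3142 ± 632, the last pair encoding the chains of type I collagen. In liver the same genes stood at 82.9 ± 46.2 for Col3a1, 54.4 ± 29.3 for Col1a2 and 49.7 ± 29.1 for Col1a1. In brain they stood at 16.3 ± 15.6 for Col3a1, 15.3 ± 14.2 for Col1a2 and 6.45 ± 7.19 for Col1a1. Within each tissue the spread between mice was larger than most of the gaps between these genes, but the genes rose and fell together. Within a library the ratio of Col3a1 to Col1a1 per unit of length was 2.29 to 4.00 in WT brain, 1.46 to 1.85 in WT liver and 1.14 to 1.30 in WT skin. The order among the genes is still not firm, because it depends on the length used. With all annotated exons as the length, Col1a2 came to 23.9 in liver and 1383 in skin, and Col3a1 to 2798 in skin, below the 3126 of Col1a1.

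The balance of Col1a1 to Col1a2 within a library was much steadier than either level. The count ratio per unit of length lay between 0.311 and 0.481 in the 5 WT brains, between 0.806 and 0.983 in the 5 WT livers and between 1.04 and 1.18 in the 5 WT skins. The tissues did not overlap, and the KI libraries lay close to the WT range of their own tissue, at 0.476 and 0.489 in brain, 0.838 and 0.983 in liver and 1.06 and 1.09 in skin. Type I collagen is usually assembled from 2 chains of Col1a1 and 1 of Col1a2. The absolute ratio depends on the transcript length used, but its order across tissues does not, since the same length is used in every library.

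Of the basement membrane genes, Col4a1 and Col4a2 led in every tissue and Col4a5 came next. Col4a1 had 377 ± 75.8 CPM per kilobase in skin, 68.2 ± 23.7 in liver and 21.5 ± 8.61 in brain (SD, n = 5), and in brain it was the collagen with the highest mean. Col4a2 had 208 ± 38.1, 32.4 ± 13.0 and 15.96 ± 5.27, in the same order. Col4a5, whose chain is best known from the kidney filter, had 11.7 ± 1.99, 1.65 ± 0.810 and 3.20 ± 1.59. The ratio of Col4a1 to Col4a2 was 1.22 to 1.47 in WT brain, 1.58 to 1.96 in WT skin and 2.01 to 2.597 in WT liver, again with no overlap.

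The other classes gave each tissue its own leading genes. In liver Col18a1, a multiplexin of basement membranes whose cleaved end is endostatin, reached 281 ± 16.9 CPM per kilobase and was the most abundant collagen there. Its spread was also the smallest of the 35 members with a mean of at least 1 CPM in WT liver: the 5 livers had 1713, 1818, 1642, 1923 and 1797 CPM, a coefficient of variation of 6.01% against a median of 45.5%. Col14a1, which coats fibrils, followed with 31.4 ± 10.6 CPM per kilobase, and Col6a1 with 21.4 ± 10.9. In skin the type VI genes Col6a2 (669 ± 126), Col6a1 (626 ± 90.3) and Col6a3 (281 ± 61.6) led. With all annotated exons as the length Col6a2 came to 317, below the 584 of Col6a1, so their order rests on the length used. In brain the leaders were Col26a1 (19.0 ± 3.07), of which little is known, and the cartilage-type fibril-associated genes Col9a2 (16.3 ± 3.37) and Col9a3 (14.3 ± 6.97). With all annotated exons Col26a1 came to 8.86, below Col9a2 at 15.4 and Col9a3 at 10.6, so its lead rests on the length used.

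Tests between WT tissues were made on the 15 WT libraries, with a call at an adjusted p under 0.1 (edgeR quasi-likelihood test, Benjamini-Hochberg over 17071 genes) and a log2 fold change of at least 2. 43 of the 44 members could be tested, Col10a1 being too low. Against brain, 26 of the 43 were called higher in skin, where 18.6% of all genes were, and 0 were called lower, where 15.3% were. With an unadjusted p under 0.05 and no limit on size, 36 were higher and 3 lower (backgrounds 38.9% and 37.8%), and DESeq2 with the size limit also had 0 lower. Against liver, 32 were called higher in skin (background 18.7%) and 1 lower (background 10.6%), the latter being Col18a1; the unadjusted figures were 39 and 2 (38.5% and 31.5%). Between brain and liver the family split, with 13 higher in brain (background 22.6%) and 10 higher in liver (background 19.2%), the unadjusted figures being 17 and 20 (42.0% and 39.1%). The median log2 fold change of the members was 3.45 for skin against brain and 3.92 for skin against liver, against 0.02 and 0.10 over all genes.

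Skin against brain was widest for Col1a1, followed by Col14a1 (8.39, SE 0.43), and skin against liver was widest for Col26a1 (9.06, SE 0.42). Col1a1 was higher in skin than in brain by 9.06 on the log2 scale (SE 0.83, edgeR adjusted p = 5.8e-08). Col17a1, a transmembrane collagen of the hemidesmosomes that fix basal keratinocytes, was higher by 8.37 (SE 0.35) against brain and by 7.84 (SE 0.34) against liver. Col7a1, which forms the anchoring fibrils below the epidermis, was higher by 7.90 (SE 0.42) and 8.73 (SE 0.44). 9 of the 11 fibrillar members were called higher in skin than in brain. The exceptions were the cartilage-type genes Col11a1 and Col11a2, at 0.97 (SE 0.37) and 0.63 (SE 0.22).

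Col18a1 ran the other way. WT skins had 299 to 432 CPM and WT brains 16.2 to 45.6, so that liver lay above both without overlap; the log2 fold change was -2.26 for skin against liver (SE 0.24) and -6.15 for brain against liver (SE 0.28). Col13a1, a transmembrane collagen of cell junctions, had its highest mean in liver at 11.2 CPM, but skin at 9.47 was not different beyond the spread (log2 fold change -0.25, SE 0.51, edgeR adjusted p = 0.68). Col4a4 also had its highest mean in liver, at 1.96 CPM. Brain had the highest mean for Col25a1 (28.5 CPM), a transmembrane collagen first found in amyloid plaques, and for Col9a2, Col9a3 and Col19a1, none of them without overlap with skin. For the remaining 37 of 44 members skin had the highest mean, and in 30 of these all skins lay above all libraries of the other tissues.

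Scaling matters for the contrasts with liver, where a few hepatocyte genes take up many counts. With library totals only, the median over all genes moved from 0.10 to 0.81 for skin against liver and from 0.06 to 0.85 for brain against liver. The members then gave 37 higher and 0 lower in skin against liver, so Col18a1, at -1.56, was no longer called, and 14 higher and 5 lower in brain against liver. On that scaling the liver level of Col18a1 was 199.7 CPM per kilobase.

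**Figure D2:**
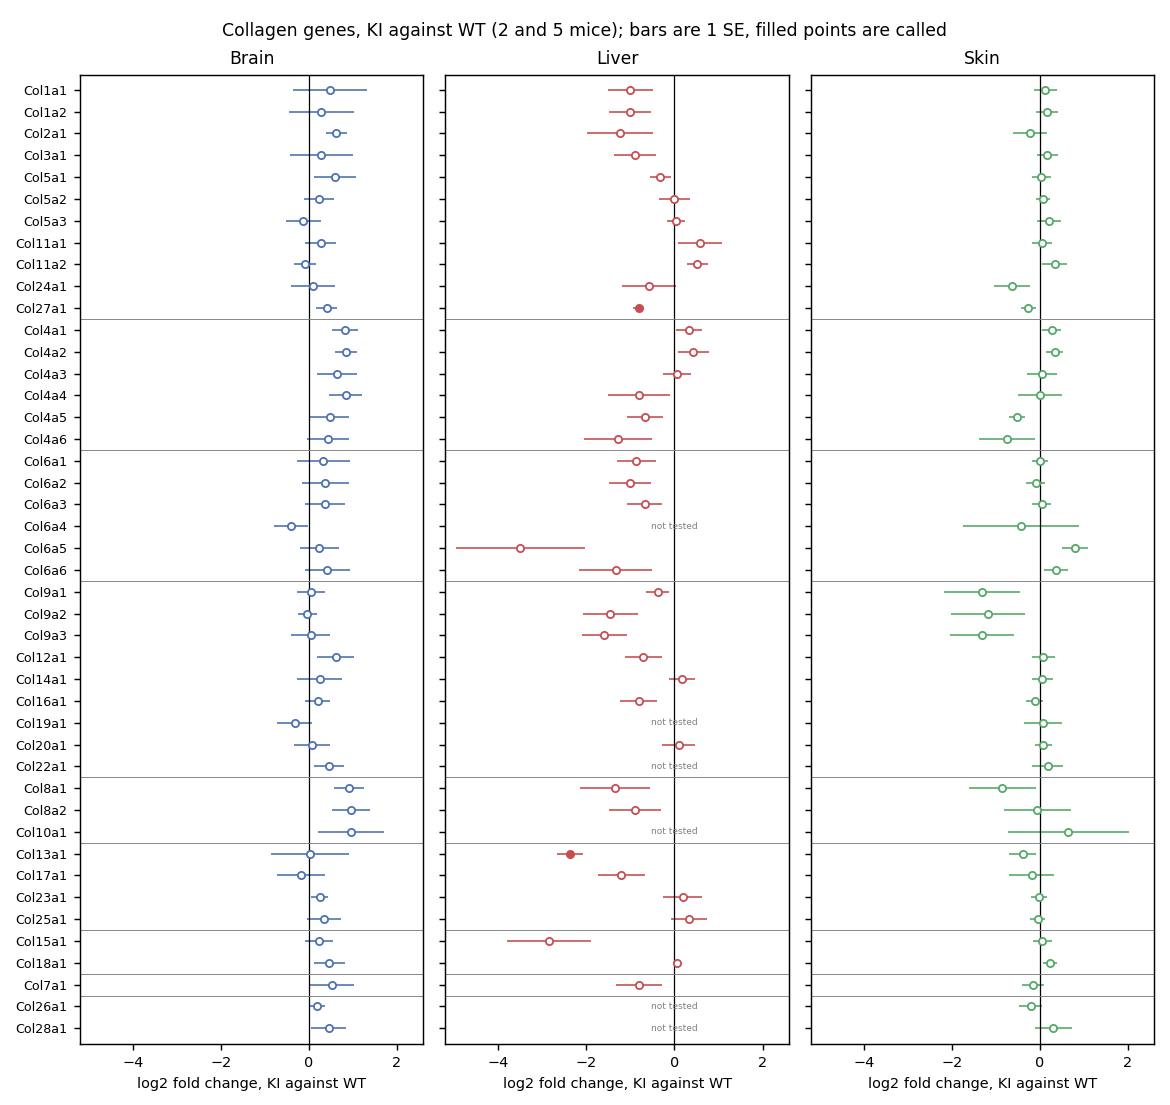
Log2 fold change of KI against WT for each collagen gene in brain, liver and skin (2 KI and 5 WT mice), with bars of 1 SE; filled points passed an edgeR adjusted p of 0.1. Most brain points lie to the right of 0 and most liver points to the left, skin points scatter around 0, and the filled points are Col13a1 and Col27a1 in the liver.

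Did the knock-in change collagen expression? In the liver, 2 of 38 tested members were called, both lower in KI: Col13a1 and Col27a1. The background for a lower call was 1.68% of 14966 genes, and 0 members were called higher, where the background was 3.89%. The 6 members too low to test were Col6a4, Col10a1, Col19a1, Col22a1, Col26a1 and Col28a1. By unadjusted p under 0.05, 7 of the 38 fell and 0 rose, where 8.41% and 9.49% of all genes did. DESeq2 had 5 members lower (4.28% of all genes) and 0 higher (5.67%), adding Col9a2, Col9a3 and Col15a1. Of the 38, 11 had a log2 fold change above 0 and the median was -0.80, against -0.02 over all genes. Bulk counts cannot tell fewer cells of a type from less RNA per cell.

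Col13a1 (chr10:61300984-61441856, minus strand, mm9) had 2.27 and 2.01 CPM in the KI livers. In the WT livers it had 9.75, 13.8, 14.0, 10.9 and 7.62 CPM. All WT livers were above both KI livers by a wide gap, and the KI livers differed little from each other. The log2 fold change was -2.37 (SE 0.29, edgeR adjusted p = 0.0057), a level 0.194 times that of WT. Leaving out each mouse in turn kept it between -2.47 and -2.25, and it was called in 6 of the 7 such fits, the exception being the fit without KI 2 (adjusted p = 0.11). In a fit of all 21 libraries, where the tissues share an estimate of the spread, it did not pass either (edgeR adjusted p = 0.17).

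Col27a1 (chr4:62875038-62996025, plus strand, mm9), a fibrillar collagen of growth-plate cartilage, had 34.1 and 32.2 CPM in the KI livers. The WT livers had 50.9, 59.5, 58.9, 70.3 and 54.0 CPM. Again both KI livers lay below all WT livers. The log2 fold change was -0.81 (SE 0.13, edgeR adjusted p = 0.015), a level 0.572 times that of WT. It was called in 5 of the 7 fits with a mouse left out, and lost its call without either KI mouse, with adjusted p of 0.10 and 0.21. It passed in the fit of all 21 libraries (edgeR adjusted p = 0.048). Col2a1, the main cartilage collagen, was at 0.466 to 2.45 CPM in the WT livers.

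The promoters of this pair were read from the RefSeq table of GRCm38.p6, which holds windows for 35 of the 44 members, because the pair moved the same way. Shown are the 250 bases before the start of each gene, with matches in capitals to the letters TTCNNNGAA (the spaced half-sites that STAT factors bind), to CCAAT (the CCAAT box), to the TATA box letters TATAAA, and to the GC box letters GGGCGG, searched on both strands with overlaps allowed.
Col13a1: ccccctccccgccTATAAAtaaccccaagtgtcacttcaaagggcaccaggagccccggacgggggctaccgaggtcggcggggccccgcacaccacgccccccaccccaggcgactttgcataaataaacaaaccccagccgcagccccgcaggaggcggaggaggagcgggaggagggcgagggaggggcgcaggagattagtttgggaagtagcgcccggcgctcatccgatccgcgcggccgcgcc
Col27a1: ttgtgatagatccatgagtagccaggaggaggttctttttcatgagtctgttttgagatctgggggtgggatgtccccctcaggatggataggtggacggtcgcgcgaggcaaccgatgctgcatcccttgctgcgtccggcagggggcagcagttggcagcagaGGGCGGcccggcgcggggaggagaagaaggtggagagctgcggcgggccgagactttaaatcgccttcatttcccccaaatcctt

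The Col13a1 window is chr10:61979109-61979358 on the minus strand and the Col27a1 window chr4:63215162-63215411 on the plus strand, in GRCm38.p6. They shared none of the 4 motifs: the Col13a1 window held TATAAA once, the Col27a1 window GGGCGG once. TTCNNNGAA was in 2 of 38 member windows (5.26%) and in 7.02% of all 32851 windows of the same length. CCAAT was in 34.2% of member windows and 33.8% of all, TATAAA in 13.2% and 12.4%, and GGGCGG in 57.9% and 32.7%. These are matches of letters only, and no binding was measured.

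The other named liver genes did not pass. Col15a1, the second multiplexin, had 0.858 and 0.948 CPM in KI livers and 1.52, 14.5, 1.54, 9.22 and 6.61 in WT livers. Both KI livers were lowest, but WT 1 and WT 3 came close. The log2 fold change was -2.85 (SE 0.95, edgeR adjusted p = 0.16). It passed in the fit of all 21 libraries (adjusted p = 0.094).

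Col9a3 had 1.07 and 0.355 CPM against 1.32 to 2.95, Col9a1 2.19 and 2.33 against 2.57 to 3.49, and Col17a1 0.258 and 0.355 against 0.419 to 0.951. For these too both KI livers were below all WT livers, with log2 fold changes of -1.59 (SE 0.52), -0.38 (SE 0.26) and -1.21 (SE 0.53) and edgeR adjusted p of 0.15, 0.48 and 0.28. In all, 6 of 38 members (15.8%) had both KI livers below the WT range, where 12.9% of all tested genes did, so this share is near the background.

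The abundant fibrillar genes of the liver were lower on average in KI without separating. The paper's histology describes more collagen fibres in the liver lobules of KI mice, whose age its legend does not give. RNA counts do not measure deposited fibres. Col1a1 had 167 and 121 CPM in KI livers. In WT livers it had 216, 511, 115, 443 and 187 CPM, so that WT 3 was lowest of all 7 and WT 2 and WT 4 were highest. The log2 fold change was -1.001 (SE 0.51, edgeR adjusted p = 0.34). Col1a2 (-1.01, SE 0.47, adjusted p = 0.30) and Col3a1 (-0.90, SE 0.48, adjusted p = 0.36) also had WT 3 lowest and WT 2 and WT 4 highest.

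Dpt, a fibroblast marker, followed the same mice, with 12.7 CPM in WT 2 and 14.8 in WT 4, 0.512 to 5.31 in the other WT livers and 0.558 and 0.197 in the KI livers. Over the fibroblast list (Pdgfra, Dpt, Pi16, Twist2 and Mfap5), 3 of 4 tested genes had a log2 fold change below 0 and 0 were called. The list's summed level was 33.8 to 40.2 CPM in KI livers and 29.95 to 70.4 in WT livers, and none of its genes was at 0 throughout. Without WT 2 and WT 4, left out after their values were seen, the median of the members moved from -0.80 to -0.16, while Col13a1 and Col27a1 were still called and 0 members were higher (3.81% and 5.66% of all genes lower and higher). WT 4 was the highest WT liver for 22 of 44 members and WT 2 for 16, so leaving them out moves the median up by construction. The stellate cell list (0 of 7 called) summed to 417 to 421 CPM in KI livers and 306 to 504 in WT livers. The part of these cells in the fibrillar values was not tested.

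Col18a1, the most abundant liver collagen, kept the WT level. KI livers had 1827 and 1808 CPM, within the WT range of 1642 to 1923, and the log2 fold change was 0.05 (SE 0.09). Col4a1 and Col4a2 pointed up in KI livers, with 533 and 583 CPM against 404, 603, 409, 606 and 234 for Col4a1 and a log2 fold change of 0.33 (SE 0.30, edgeR adjusted p = 0.61). For Col4a2 it was 0.43 (SE 0.35, adjusted p = 0.58). WT 5 was the lowest liver for both, and it was also lowest for the endothelial marker Pecam1 (40.1 CPM, against 77.8 to 101 in the other WT livers and 122 and 140 in the KI livers). Pecam1 was chosen from the endothelial list after its values were seen, and the part of vessels in the Col4a1 and Col4a2 values was not tested. Col7a1 had a log2 fold change of -0.80 (SE 0.52, adjusted p = 0.47).

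**Figure D3:**
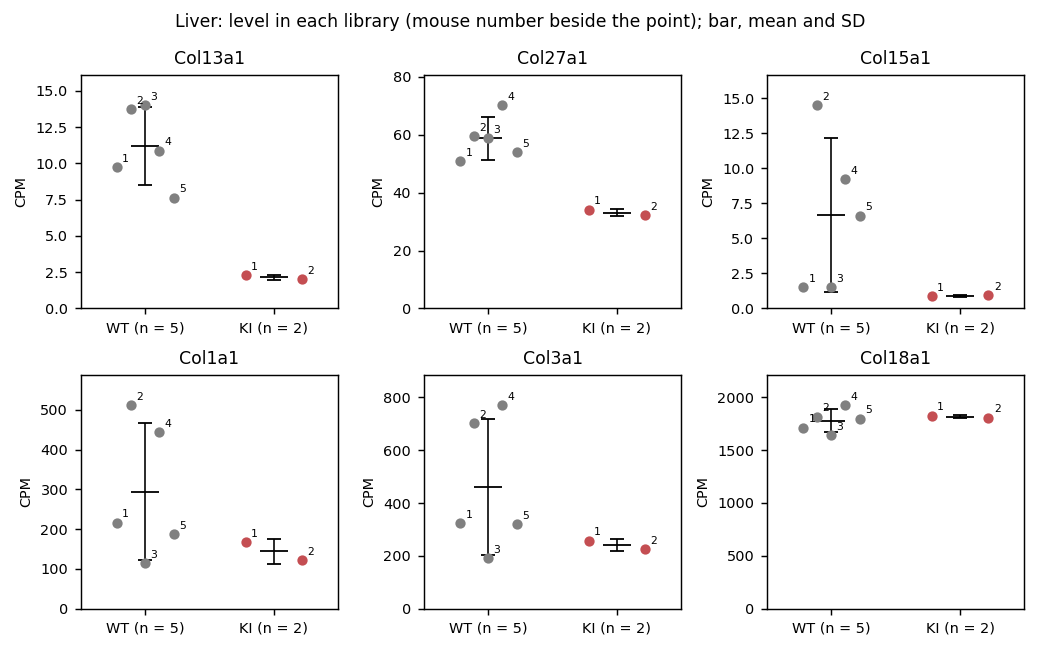
CPM of 6 collagen genes in each liver library, with the mouse number beside each point and the mean and SD of each group as bars; the axes start at 0. KI livers lie below all WT livers for Col13a1, Col27a1 and Col15a1, Col1a1 and Col3a1 overlap with WT 2 and WT 4 highest, and Col18a1 is level at 1642 to 1923 CPM.

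Genes that make and remodel collagen were followed as lists. In liver, 4 of their genes were called, all higher in KI, where 3.89% of all genes were called higher and 1.68% lower. Loxl4, a lysyl oxidase-like enzyme that crosslinks collagen, had 7.34 and 13.2 CPM in KI livers and 0.838 to 2.45 in WT livers (log2 fold change 2.80, SE 0.42, edgeR adjusted p = 0.012). Timp1, an inhibitor of matrix metalloproteinases, had 6.99 and 8.25 against 1.68 to 3.65 (1.75, SE 0.30, adjusted p = 0.020).

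Mmp8, the collagenase stored by neutrophils, had 160 and 239 CPM against 107 to 147 (log2 fold change 0.75, SE 0.17, edgeR adjusted p = 0.052). Plod3, which hydroxylates and glycosylates collagen lysines, had 65.8 and 64.8 against 47.7 to 56.6 (0.33, SE 0.09, adjusted p = 0.087). In each case both KI livers were above all WT livers. Without KI 2 all of these lost their call, with adjusted p of 0.21 for Loxl4, 0.23 for Timp1, 0.46 for Mmp8 and 0.39 for Plod3. Plod3 also lost it without KI 1 (0.35), with library totals only (0.13), without the filter (0.11) and with the GC correction (0.10), and Mmp8 without WT 2 (0.10). In the fit of all 21 libraries Mmp8 (0.22) and Plod3 (0.49) did not pass.

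By list, the called liver genes were 1 of 20 tested for synthesis (median log2 fold change 0.14), 1 of 12 for processing and crosslinking (-0.11) and 2 of 11 for breakdown (0.16), beside the 3.89% of all genes called higher. With so few calls these counts are a description and set no list apart. None of the 10 fibril partners (-0.28), 15 basement membrane partners (-0.20) and 10 receptors (-0.20) was called, with 2, 3 and 5 of them above 0. In brain and skin 0 genes of these lists were called by edgeR. Spp1, osteopontin, was another matrix gene called in liver, at 38.5 and 40.5 CPM in KI against 99.2 to 236 in WT (log2 fold change -2.07, SE 0.35, edgeR adjusted p = 0.019).

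In the brain no member was called, as was true of every one of the 16322 genes tested (background 0% in each direction). At an unadjusted p under 0.05, 4 of 44 members were higher and 0 lower, against 2.8% and 7.81% of all genes, and DESeq2 called 0 members while calling 80 genes higher and 524 lower. Even so the family leaned one way: 38 of the 44 members had a log2 fold change above 0, against 47.2% of all genes, with a median of 0.34 against -0.02. All 6 basement membrane members were above 0, from 0.43 to 0.84 (median 0.73), as were the 3 short-chain members (0.91 to 0.96) and 9 of the 11 fibrillar members (median 0.28). By gene set enrichment the paper reports a set of extracellular matrix genes as upregulated in KI brains.

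Col4a2 had the lowest p. It had 192 and 197 CPM in the KI brains. In the WT brains it had 77.6, 161, 93.0, 103 and 80.3 CPM. Both KI brains were above all WT brains, WT 2 being the nearest, and the log2 fold change was 0.84 (SE 0.26, unadjusted p = 0.011, edgeR adjusted p = 0.33).

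Col4a1 kept the same order, with 256 and 273 CPM in KI brains against 111, 242, 129, 129 and 101 in WT brains. Its log2 fold change was 0.81 (SE 0.30, edgeR adjusted p = 0.40). The gap between WT 2 and KI 1 was small beside the spread of the WT brains.

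Col8a1 and Col8a2, short-chain collagens of vessel walls and the corneal Descemet membrane, had KI values above every WT brain as well. Col8a1 had 14.6 and 15.1 CPM against 3.73, 9.82, 7.34, 6.95 and 9.51 (0.91, SE 0.33, edgeR adjusted p = 0.40). Col8a2 had 11.4 and 12.9 CPM against 2.44 to 8.72 (0.96, SE 0.43, adjusted p = 0.48).

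Col2a1 had 18.8 and 22.6 CPM against 9.07 to 15.9 (0.62, SE 0.24, edgeR adjusted p = 0.42). Col4a4 had 1.40 and 1.37 against 0.435 to 0.935 (0.84, SE 0.37, adjusted p = 0.48), and Col22a1 8.51 and 6.998 against 2.83 to 6.85 (0.45, SE 0.34, adjusted p = 0.69). These made 7 of 44 members (15.9%) with both KI brains above the WT range, where 17.9% of all tested genes were, so the share was no larger than the background.

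The fibrillar genes of the brain depended on WT 2. Col1a1 had 56.3 and 55.8 CPM in KI brains. In WT brains it had 8.14, 113, 29.0, 13.6 and 27.6 CPM, so that WT 2 was higher than both KI brains and the other WT brains were lower. The log2 fold change of 0.48 (SE 0.84, edgeR adjusted p = 0.87) rose to 1.44 without WT 2. Col1a2 (0.28, SE 0.73) and Col3a1 (0.28, SE 0.71) had the same order, with 112 and 121 CPM in KI brains and 242 in WT 2 for Col3a1. Col7a1 (0.53, SE 0.50, edgeR adjusted p = 0.74) and Col17a1 (-0.18, SE 0.54, adjusted p = 0.93), the epidermal collagens, were at most 4.47 and 0.824 CPM in any brain.

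The meningeal marker Slc6a13, chosen from its list after its values were seen, had the same order. It had 60.4 CPM in WT 2, 6.14 to 18.1 in the other WT brains and 23.7 and 26.2 in the KI brains. The meningeal list (7 of 7 genes tested, 0 called, 5 above 0) summed to 430 to 447 CPM in KI brains and to 149 to 916 in WT brains. Igf2 made up most of that sum, and no gene of the list was at 0 throughout.

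Some vessel markers, chosen from their lists after their values were seen, were higher in KI brains too. Pecam1 had 35.5 and 33.1 CPM against 18.4 to 27.0 in WT brains, Kdr 59.6 and 56.2 against 19.5 to 45.5, and the pericyte gene Pdgfrb 36.4 and 40.2 against 18.6 to 33.0. All lay above the WT range, as did 17.9% of all tested genes, and none passed (edgeR adjusted p = 0.36, 0.41 and 0.37). Over the lists, 6 of 8 endothelial and 7 of 7 pericyte genes had a log2 fold change above 0, with summed levels of 276 to 292 against 169 to 267 CPM and of 225 to 230 against 143 to 259 CPM. The pericyte sum of the KI brains thus lay within the WT range. Of the basement membrane partners (laminins, nidogens, perlecan and agrin) 14 of 15 were above 0, with a median of 0.41, and 13 of 13 processing and crosslinking genes were, with a median of 0.23. How much of these list counts goes with transcript length was not tested. The part of vessels and meninges in the collagen values was not tested either.

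**Figure D4:**
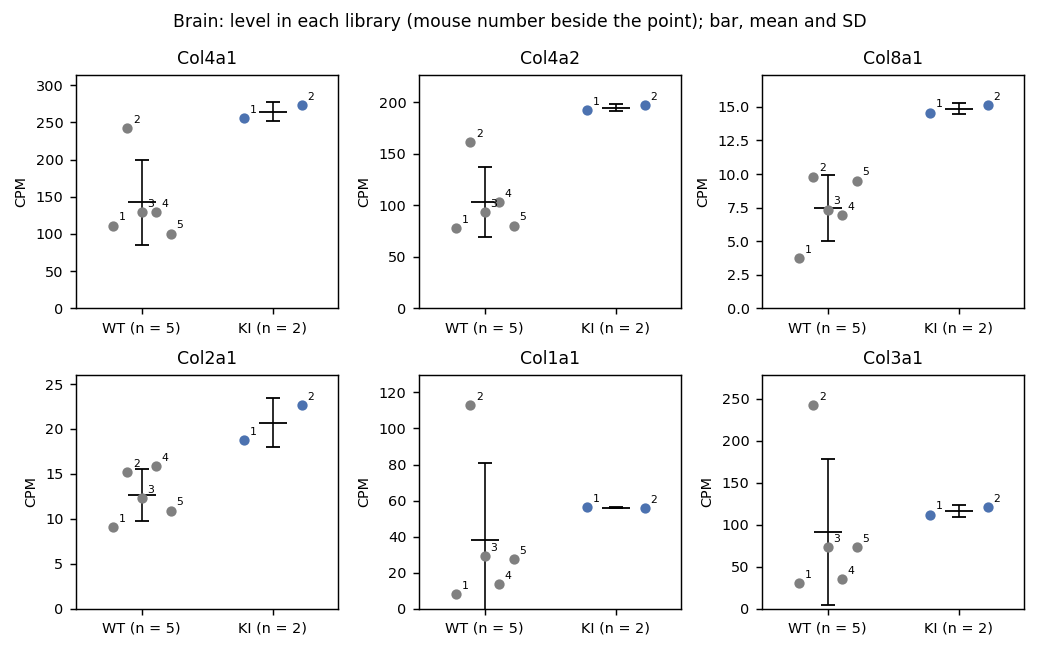
CPM of 6 collagen genes in each brain library, with the mouse number beside each point and the mean and SD of each group as bars; the axes start at 0, where the lower bar of Col1a1 is cut. KI brains lie above all WT brains for Col4a1, Col4a2, Col8a1 and Col2a1, whereas WT 2 is highest for Col1a1 (113 CPM) and Col3a1 (242 CPM).

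Transcript length moved with the brain values. Over all brain genes the KI to WT difference rose with transcript length: the median log2 fold change was -0.59 in the shortest of 10 bins of genes by length and 0.24 in the longest. 21 of the 44 members fell in the longest bin, where their median was 0.43. With a loess correction for length the members' median fell from 0.34 to 0.12, and 32 of 44 were above 0. The corrected log2 fold change was 0.61 for Col4a2, 0.59 for Col4a1 and 0.69 for Col8a1. A correction for GC content left the median at 0.30. In liver the trend was weaker and ran the other way, from 0.11 in the shortest bin to -0.15 in the longest, and the corrected median of the members was -0.63.

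**Figure D5:**
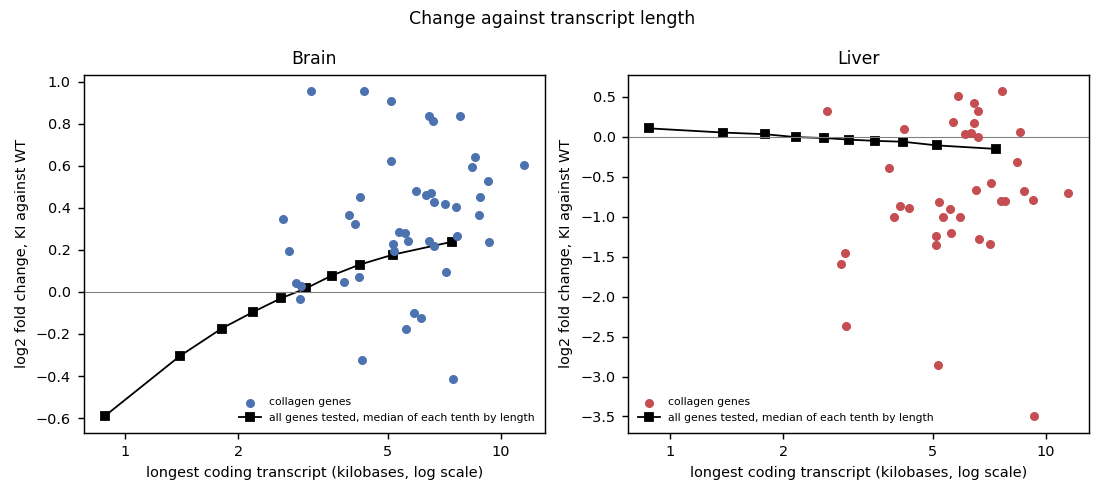
Log2 fold change of KI against WT against the length of the longest coding transcript (kilobases, log axis) in brain and liver; coloured points are collagen genes and black squares the median of all tested genes in each of 10 length bins. In brain the squares climb from -0.59 to 0.24 and most collagen genes sit at the long end, and in liver the squares fall from 0.11 to -0.15.

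The brain counts of calls also rested on single libraries. WT 5 had the fewest counts on genes (26549326) and was the WT brain furthest from the others over all genes. Its chi-square per degree of freedom against them was 176 to 208, and 26.1 to 42.1 between the other WT brains. Without WT 5, 672 genes were called higher (4.14%) and 1026 lower (6.32%), and among them 2 members, Col4a2 (adjusted p = 0.086) and Col8a1 (adjusted p = 0.083, both edgeR). Without both WT 2 and WT 5, a choice made after the values were seen, 18 of 44 members were called higher and 0 lower, against 5.43% and 6.27% of all genes. WT 2 was the highest WT brain for 19 of 44 members, so leaving it out raises their fold changes by construction. In every fit with 1 mouse left out the members' median stayed above 0.

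In the skin, where collagen is most abundant, no member was called by edgeR, with 0 of 44 in each direction beside a background of 0.0247% higher and 0% lower among 16163 genes. At an unadjusted p under 0.05 there was 1 member higher and 1 lower (backgrounds 2.89% and 1.68%), and DESeq2 called 0 members, with 96 genes higher and 11 lower. The log2 fold changes were above 0 for 24 of 44, with a median of 0.03. The major dermal collagens were close to WT with a small error. Col1a1 had 20868 and 24425 CPM in KI skins against 18141, 15508, 20162, 21896 and 26872 in WT skins (0.12, SE 0.25). Both KI skins were inside the WT range.

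Col1a2 (0.16, SE 0.25) and Col3a1 (0.17, SE 0.23) lay equally within the WT range. Col4a1 had 2840 and 3250 CPM against 1906 to 3251 (0.27, SE 0.22), and Col4a2 1620 and 1819 against 1037 to 1662 (0.34, SE 0.20). The edgeR adjusted p of each was 1.0. These values limit the size of a change more tightly than in the other tissues, since the median coefficient of variation of the members between WT mice was 24.4% in skin, 41.2% in brain and 45.5% in liver.

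The epidermal collagens split between the KI mice. Col17a1 had 240 CPM in KI 1 and 57.9 in KI 2, and 179, 161, 141, 250 and 109 in the WT skins. KI 2 was the lowest of all 7 and WT 5 the next. Krt5, a keratin of basal keratinocytes, had 1549 and 392 CPM in KI 1 and KI 2 and 1384, 885, 1062, 2232 and 611 in the WT skins, so the same libraries were lowest.

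The log2 fold change of Col17a1 was -0.19 (SE 0.51), and without KI 2 it was 0.50. Col7a1 had 594 and 438 CPM in KI skins against 497, 438, 507, 782 and 627 (-0.16, SE 0.24), and 0.05 without KI 2. Without KI 2 and WT 5, the skins lowest in Krt10 and Krt1, 0 members were called, as were 0 of all genes, and the median was 0.09.

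Among the members, those with both KI skins outside the WT range were 2 above (background 5.45%) and 1 below (background 3.82%). Col6a5, a type VI chain, had 6.60 and 8.39 CPM against 2.80 to 5.75 (0.80, SE 0.30, unadjusted p = 0.028). Col18a1 had 440 and 444 against 299 to 432 (0.23, SE 0.16). Col4a5 had 50.2 and 58.1 against 63.7 to 90.4 (-0.51, SE 0.18, unadjusted p = 0.021).

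Type IX collagen, a cartilage-type set chosen after its values were seen, varied widely in skin. Col9a2 had 34.9 CPM in WT 5 and 32.1 in WT 2 against 6.25 to 7.59 in the other WT skins and 5.88 and 9.85 in the KI skins, and Col9a1 and Col9a3 showed the same 2 WT skins highest. The log2 fold changes were -1.31 for Col9a1, -1.17 for Col9a2 and -1.31 for Col9a3, with SE of 0.87, 0.84 and 0.73. The summed level of the cartilage marker list was 39.2 to 49.5 CPM in WT skins, with WT 4 highest, and 24.1 to 46.9 in KI skins.

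Did the effect of the knock-in differ between tissues? The difference itself was tested over all 21 libraries. For liver minus brain, 2 of 44 members were called, both lower (background 1.05% of 18062 genes), and 0 higher (background 1.77%). By unadjusted p under 0.05 it was 9 lower and 0 higher (7.89% and 7.25%). Col27a1 had a difference of -1.31 (SE 0.26, edgeR adjusted p = 0.031), being lower in KI livers and at 7.79 and 11.1 CPM in KI brains against 5.88 to 8.70 in WT brains. Col15a1 had a difference of -3.20 (SE 0.91, adjusted p = 0.095), with 14.1 and 19.1 CPM in KI brains against 8.75 to 16.9.

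With the mouse as a block, the Col15a1 difference no longer passed (edgeR adjusted p = 0.12) and that of Col27a1 did (0.029). Neither passed when either KI mouse was left out, and without WT 1, WT 2, WT 4 or WT 5 in turn only Col27a1 did. The Col13a1 difference was -2.49 (SE 0.92, adjusted p = 0.19). Of the 44 differences 41 were below 0, with a median of -1.16 against -0.10 over all genes. These differences were not corrected for transcript length. In the longest length bin the median KI change over all genes was 0.24 in brain and -0.15 in liver, so long genes as a whole lean the same way.

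For skin minus brain 0 members were called, as were 0 of all genes, and for skin minus liver 0 members were called, where the background was 0.0332% higher and 0.0664% lower. By unadjusted p under 0.05, skin minus brain had 1 member lower and 0 higher (3.29% and 4.12% of all genes), and skin minus liver 4 higher and 0 lower (3.11% and 2.44%). DESeq2 called 0 and 2 members, the latter being Col6a5 and Col15a1.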

How the data were processed

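RNA from 21 libraries (2 KI and 5 WT mice, 3 tissues) was sequenced with an unstranded kit as paired reads. Per the submitters' processing notes and the paper, the authors aligned reads to mm9 with TopHat2 and counted them with HTSeq; the deposited files hold raw counts per gene symbol, and their 5 summary lines were left out. Same genotype and number in different tissues was taken as 1 mouse. All genes were fitted with edgeR 4.0.16 in R 4.3.3 (filterByExpr, TMM, quasi-likelihood test, Benjamini-Hochberg, calls at 0.1). DESeq2 1.42.0, other scalings, loess corrections for length and GC content (span 0.3), a replicate block and left-out mice were alternatives. SE is the log2 fold change divided by the root of the F statistic. Steps were tested on simulated data. The members and lists were chosen with earlier results of these data known. Genes were named where called, where both KI libraries lay outside the WT range (at most 10), for a fixed set (Col1a1, Col1a2, Col3a1, Col4a1, Col4a2, Col7a1 and Col17a1), and as the 3 highest per class group in WT tissue. Pathway genes were named where called. Other genes were chosen after their values were seen. WT libraries of the same number were taken to pair the tissues as 1 animal, which the labels do not state (r of deviations -0.0063 to 0.17).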

Additional observations from a re-analysis of the deposited data

Results flagged for a closer look

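Among the 5 WT libraries of a tissue, a library stood far from the others in 4 of 34 named member and tissue groups. Chance gives about 1 in 20 for independent groups. These groups share libraries and hold genes that move together, so the count is a description and cannot be set against that rate. In the brain WT 2 stood apart for Col1a1 at 113 CPM, with 29.0 as the next value, for Col3a1 at 242 CPM with 73.3 next, and for Col4a1 at 242 CPM with 129 next. In the liver WT 2 stood apart for Col7a1 at 2.34 CPM with 1.18 next. The KI effect differed between liver and brain for Col27a1, by -1.31 on the log2 scale (edgeR adjusted p = 0.031), and for Col15a1, by -3.20 (adjusted p = 0.095).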

How the results depend on the processing

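Of 126 counts of called members under alternatives, 108 stayed within 1.5 times the reported count. Within a tissue, the block fits of KI against WT used only KI 1, KI 2, WT 1 and WT 2. WT 3, WT 4 and WT 5 have no KI mouse of the same number and were left out. In liver, WT 3 was the lowest of all for Col1a1, Col1a2 and Col3a1. WT 2, which was kept, was among the highest for these genes. In brain, 0 became 1 (Col2a1) with the replicate number as a block, 18 without WT 2 and WT 5, chosen after seeing the data, and 0 to 2 with a mouse left out. In liver, 2 became 5 with DESeq2 (Col9a2, Col9a3 and Col15a1 added), 10 with the block, all lower (Col1a1, Col1a2, Col3a1, Col5a1, Col6a1, Col6a2, Col6a3 and Col15a1 added to the reported pair; 2.34% of all genes lower and 3.77% higher), and 0 to 2 with a mouse left out. For liver minus brain, 2 became 1 without the filter, 4 with DESeq2, 1 with the block, 1 at an adjusted p of 0.05, and 0 to 3 with a mouse left out. For skin minus liver, 0 became 2 with DESeq2. The causes were not tested. Same-numbered KI and WT mice share only a number (r of deviations -0.0731 to 0.17), so the block is no pairing there. Blocking WT tissues by mouse gave 27 higher in skin against brain, 33 higher and 1 lower in skin against liver, and 13 higher and 12 lower in brain against liver.

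Of 578 log2 fold changes, 8 changed sign, none of them called. Col17a1 in brain became 0.23 with the block and 0.070 without WT 2 and WT 5, and ranged from -0.35 to 0.081 with a mouse left out. Col17a1 in skin became 0.38 without KI 2 and WT 5 and ranged from -1.52 to 0.50 with a mouse left out. Col7a1 in skin became 0.086 with the block and 0.085 without KI 2 and WT 5 and ranged from -0.36 to 0.049. Of 54 levels in WT tissue, 11 moved by more than 1 SD with another length or scaling. With 2 KI mice, leaving out 1 assumes that the other varies like the WT mice, and 6 low members of the liver could not be tested.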
